A study of Mus musculus with 16 samples.

Results

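The genes described here are 40 members of the amino acid branch of the integrated stress response and of the unfolded protein response. They were chosen by name, as every array probe other than a control spot that carries a member's symbol or a synonym. All 40 of 40 were on the array, on 70 of 41174 probes, and all 40 were among the 17082 genes tested. Each gene stands for its brightest probe, and the representative probe of each member was well above background in both channels on all 16 arrays. The members divide into 8 regulators and feedback genes, 6 amino acid synthesis genes, 6 amino acid transporters, 9 cytosolic tRNA synthetases, 3 sensors or XBP1, and 8 chaperones or degradation genes of the endoplasmic reticulum (ER).

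In the integrated stress response, kinases that sense amino acid shortage, ER stress and other insults phosphorylate the initiation factor eIF2alpha, which slows general translation and favours translation of ATF4. ATF4 pairs with C/EBP proteins and switches on genes that import and make amino acids and charge tRNAs. It also induces feedback genes such as Trib3 and Ppp1r15a, which limit the response. In the unfolded protein response, the ER sensors IRE1alpha (Ern1), ATF6 and PERK raise chaperones such as Hspa5 (BiP) when folding falls behind secretion. Mast cells make and store large amounts of secreted protein, and antigen that crosslinks IgE on their surface makes them degranulate and transcribe cytokine genes.

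Mast cells had been grown from mouse bone marrow with 10% serum, 5 ng/ml interleukin 3 and 40 ng/ml stem cell factor for over 4 weeks, to a purity above 90% by FcERIa and c-kit staining. All cells received either an agonist polyclonal goat antibody against TIM-3, a surface receptor of immune cells encoded by Havcr2, or control goat IgG, each at 15 ug/ml. Resting cells received the antibody or IgG alone for 2 h or 16 h. Activated cells were first sensitized with 5 ug/ml of IgE against DNP for 1 h and then received 100 ng/ml of the antigen DNP-HSA together with the antibody or IgG for 2 h or 16 h. Each of the 4 groups (resting 2 h, activated 2 h, resting 16 h and activated 16 h) has 4 two-colour arrays, numbered replicates 1 to 4, with the anti-TIM-3 RNA in Cy5 and the IgG RNA in Cy3. The genotype, strain and age of the mice are not given in the sources used here. Resting cells had no IgE, so the comparison of activated with resting cells covers IgE and antigen together.

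No array had the dyes exchanged. A ratio within 1 group therefore joins what the antibody did with any dye preference of the probe, and these cannot be told apart, while a preference that is equal on all arrays drops out of the difference between groups. Whether the replicates are separate cultures or mice is not stated in the labels. The p-values accordingly measure only the spread between these arrays, which may be technical, and the number of arrays limits the precision. The share of probes well above background ran from 53.7% to 62.1% in Cy3 and from 54.8% to 67.7% in Cy5, with 0 saturated spots. All 10 mast cell markers looked for were above background on every array, and so were all 4 basophil markers (Mcpt8, Prss34, Il3ra and Cd200r3). The same held for 6 of 7 macrophage and dendritic cell markers and 2 of the 7 neutrophil markers on the array (Mpo and S100a9), while Elane, Camp and Ngp were above background on 0 arrays. A set of 3 arrays (resting 2 h replicate 3, resting 16 h replicate 3 and activated 2 h replicate 1) deviated together from their groups in the log2 ratio, and counts without them are given where they differ. The arrays lay on 4 slides, each holding 3 of the 4 groups. Arrays on a slide often carry different replicate numbers, so differences within a slide are not paired by replicate.

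RefSeq windows of 300 bases around the annotated start site, 250 before it and 50 from it onward (build GRCm38.p6), were at hand for 34 of the 40 members; Slc7a5, Slc1a5, Wars, Nars, Cars and Atf6 had none. The C/EBP-ATF element TGATGNAA, the letters to which ATF4 dimers are known to bind, was found on either strand in 10 of 34 members (29.4%), against 4.51% of 27025 genes with such a window. The ER stress element, CCAAT followed after 9 bases by CCACG and known from chaperone promoters, was found in 3 of 34 members (8.82%) and in 0.137% of genes. The UPR element TGACGTGG was found in 0 of 34 members and in 0.714% of genes. No match of one motif overlapped a match of another in the members' windows. The stretches below show where the letters lie in 5 members described in detail further on and in a pair of chaperones; capitals mark the matches, and all are written 5′ to 3′ on the gene's strand, from RefSeq.
Chac1: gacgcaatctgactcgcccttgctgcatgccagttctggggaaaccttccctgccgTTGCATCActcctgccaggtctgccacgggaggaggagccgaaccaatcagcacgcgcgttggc
Nupr1: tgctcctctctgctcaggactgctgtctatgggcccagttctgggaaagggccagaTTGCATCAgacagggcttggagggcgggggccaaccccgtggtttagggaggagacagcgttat
Slc7a11: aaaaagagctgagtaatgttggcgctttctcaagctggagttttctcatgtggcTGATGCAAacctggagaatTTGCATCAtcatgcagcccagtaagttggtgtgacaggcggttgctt
Asns: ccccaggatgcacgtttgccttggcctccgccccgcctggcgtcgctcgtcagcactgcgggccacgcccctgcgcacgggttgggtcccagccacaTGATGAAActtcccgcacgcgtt
Trib3: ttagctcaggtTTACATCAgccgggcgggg
Hspa5: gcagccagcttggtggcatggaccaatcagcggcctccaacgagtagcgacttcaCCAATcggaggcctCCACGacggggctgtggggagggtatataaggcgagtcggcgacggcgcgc
Calr: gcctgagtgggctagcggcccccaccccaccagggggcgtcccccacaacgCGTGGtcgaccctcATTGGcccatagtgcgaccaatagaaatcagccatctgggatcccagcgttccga
The Chac1 stretch lies at chr2:119350993-119351112 on the plus strand, and its match, on the opposite strand (TTGCATCA as printed), begins 193 bases before the start site. The Nupr1 stretch (chr7:126625517-126625636, minus strand) holds the same 8 letters, 110 bases before its start. Slc7a11 (chr3:50443614-50443733, minus strand) has 2 matches that face opposite ways, beginning 66 and 47 bases before the start. Asns (chr6:7693210-7693329, minus strand) has its match 23 bases before the start, and Trib3 (chr2:152344028-152344057, minus strand) has it 14 bases after the start, inside the transcript. The ER stress elements of Hspa5 (chr2:34771970-34772089, plus strand) and Calr (chr8:84847025-84847144, minus strand) begin 65 and 162 bases before their starts, that of Calr on the opposite strand. A letter match is a description of the window and not evidence of binding in these cells.

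**Figure D1:**
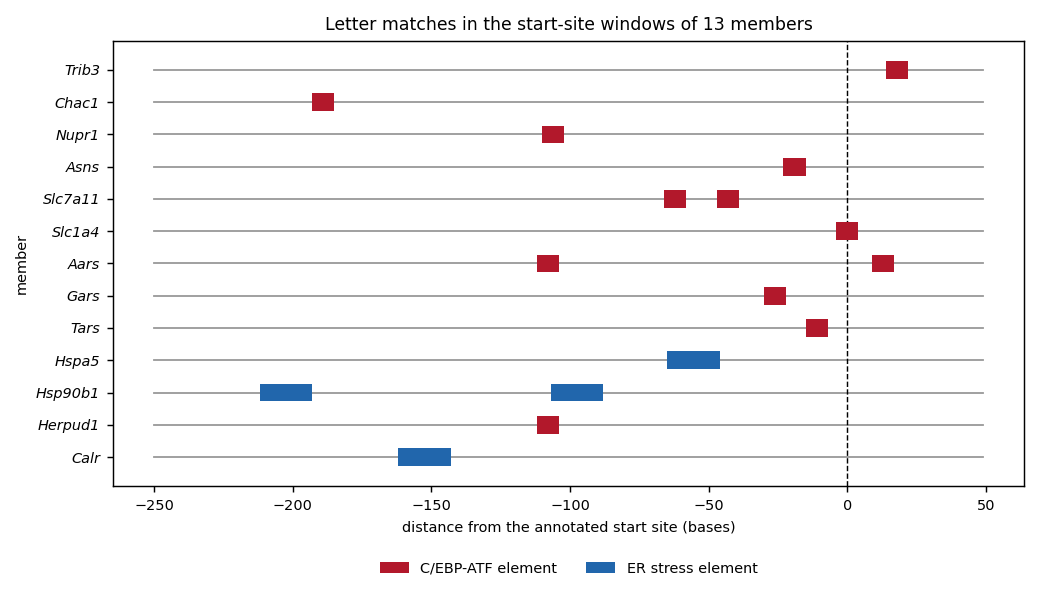
Position of each letter match (boxes) in the RefSeq window of the 13 members that hold one, in bases from the annotated start site (dashed line); red boxes are C/EBP-ATF elements and blue boxes ER stress elements. The 10 members with a C/EBP-ATF element are regulators, transporters, tRNA synthetases, Asns and Herpud1, and the 3 with an ER stress element are the chaperones Hspa5, Hsp90b1 and Calr.

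The first comparison asked what IgE and antigen did to these genes in the control cells, from the Cy3 channel. After 2 h, 19 members were higher and 3 lower in activated than in resting cells; 42.9% of all genes tested were called in this comparison (15.3% higher and 27.6% lower). The median difference on the log2 scale was 0.22 over the members and -0.04 over all genes. Among the roles, 6 of 8 regulators and 5 of 9 tRNA synthetases rose, whereas the ER chaperones went both ways. Because the samples are bulk RNA, fewer cells of a type and less RNA per cell cannot be told apart.

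Chac1, an enzyme that breaks down glutathione and is a sensitive ATF4 target, had log2 Cy3 levels of 8.89, 9.70, 9.56 and 9.54 in resting cells and 11.06, 11.27, 11.28 and 11.09 in activated cells. Every activated array lay above every resting array, and the difference was 1.75 (SE 0.27, limma adjusted p = 5.57e-05), or 3.36-fold. On the 2 slides that held both groups it was 2.27 and 1.62. Slc7a11, the cystine importer xCT, read 7.79, 7.33, 7.39 and 7.69 in resting cells and 8.91, 8.76, 8.75 and 8.63 in activated cells. The groups did not overlap, and Slc7a11 rose by 1.21 (SE 0.15, limma adjusted p = 7.2e-06). Nupr1, a stress-induced chromatin protein, went from 10.93, 11.16, 11.21 and 11.14 to 11.92, 12.02, 11.86 and 11.88, a rise of 0.81 (SE 0.13, limma adjusted p = 9.51e-05) with no overlap.

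Trib3, a pseudokinase that restrains ATF4 and CHOP, read 11.03, 11.09, 11.33 and 11.03 in resting cells and 11.77, 12.07, 12.01 and 11.75 in activated cells. The groups did not overlap and the difference was 0.78 (SE 0.19, limma adjusted p = 0.00252). Slc1a5, the glutamine transporter ASCT2, read 13.38, 12.96, 13.40 and 12.84 in resting cells and 13.77, 13.90, 14.05 and 13.83 in activated cells. Again every activated array was the higher, by 0.74 on average (SE 0.105, limma adjusted p = 2.37e-05). Of the 22 called members, 17 had groups that did not overlap. How many of all genes had such groups was not counted, and the 42.9% of genes called in this comparison is another measure. On the shared slides the members' median was 0.24 and 0.17, and 18 of the calls held under each alternative run.

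The other regulators that rose were Cebpb (0.54), a C/EBP partner of ATF4, Ppp1r15a (0.43), the phosphatase subunit GADD34 that reverses eIF2alpha phosphorylation, and Atf4 itself (0.38). Ddit3, which encodes CHOP, and Sesn2, a leucine sensor of the mTORC1 pathway, did not pass the test (0.00 and 0.12). Of the synthesis genes, Mthfd2, a mitochondrial folate enzyme, rose by 0.47, and the other 5 of 6 did not pass. The tRNA synthetases that rose were Cars (0.45), Gars (0.39), Eprs (0.28), Nars (0.28) and Tars (0.27). Both sensor genes rose, Ern1 by 0.33 and Atf6 by 0.31, and so did the chaperones Hspa5 (0.35) and Dnajb9 (0.21). The ER genes that fell at 2 h were Calr (-0.55), Sdf2l1 (-0.46) and Edem1 (-0.40), a lectin chaperone, an Hsp40 partner and a degradation factor. For Calr, 2 resting arrays at 13.97 and 13.46 stood above the other two, 12.88 and 12.83, and a second Calr probe gave 0.16 in place of -0.55.

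After 16 h the direction was the opposite for most called members: 1 was higher and 19 were lower in activated cells, where 12.3% of all genes were called (5.24% higher and 7.03% lower). The members' median was -0.22, and that of all genes was 0.00. By role, 8 of 9 tRNA synthetases and 5 of 6 synthesis genes fell, and 0 of 3 sensors and only Herpud1 of the 8 ER genes were called.

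Chac1 read 10.12, 11.22, 10.98 and 10.43 in resting cells at 16 h and 8.60, 9.97, 9.51 and 8.98 in activated cells. The arrays within each group spread widely, yet the groups did not overlap, and Chac1 fell by 1.42 (SE 0.27, limma adjusted p = 0.00226). Nupr1 read 10.29, 10.26, 10.94 and 10.70 against 9.34, 9.78, 9.73 and 9.59, a fall with no overlap (-0.94, SE 0.13, limma adjusted p = 0.000227). Slc1a4, a transporter of serine and alanine, read 7.43, 8.41, 8.16 and 7.77 against 6.85, 7.28, 7.02 and 7.05. All 4 activated arrays lay below the lowest resting array, for a difference of -0.89 (SE 0.16, limma adjusted p = 0.00169). Mthfd2 read 10.41, 11.04, 10.77 and 10.60 against 9.71, 10.13, 9.86 and 9.96 (-0.79, SE 0.11, limma adjusted p = 0.000256). Asns, asparagine synthetase, read 12.82, 13.45, 13.38 and 13.12 against 12.17, 12.61, 12.56 and 12.35 (-0.77, SE 0.12, limma adjusted p = 0.000483), and for neither gene did the groups overlap.

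Further genes of serine and one-carbon metabolism fell as well, namely Shmt2 (-0.62), Psat1 (-0.51) and Phgdh (-0.47), the enzyme that opens serine synthesis. Among the tRNA synthetases the falls ran from -0.61 for Cars to -0.21 for Sars, and Wars did not pass (-0.01). Trib3 (-0.78) and Atf4 (-0.44) fell, whereas Ddit3, Sesn2, Cebpb and Ppp1r15a did not pass the test. Slc7a11 was the only member called higher at 16 h (0.50, SE 0.15, limma adjusted p = 0.0438), with groups that overlapped. Of the 20 calls, 11 held under each alternative run; without the 3 arrays that deviate together 14 were called, all lower. On the 2 slides that held both groups, the members' median was -0.22 and -0.18.

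**Figure D2:**
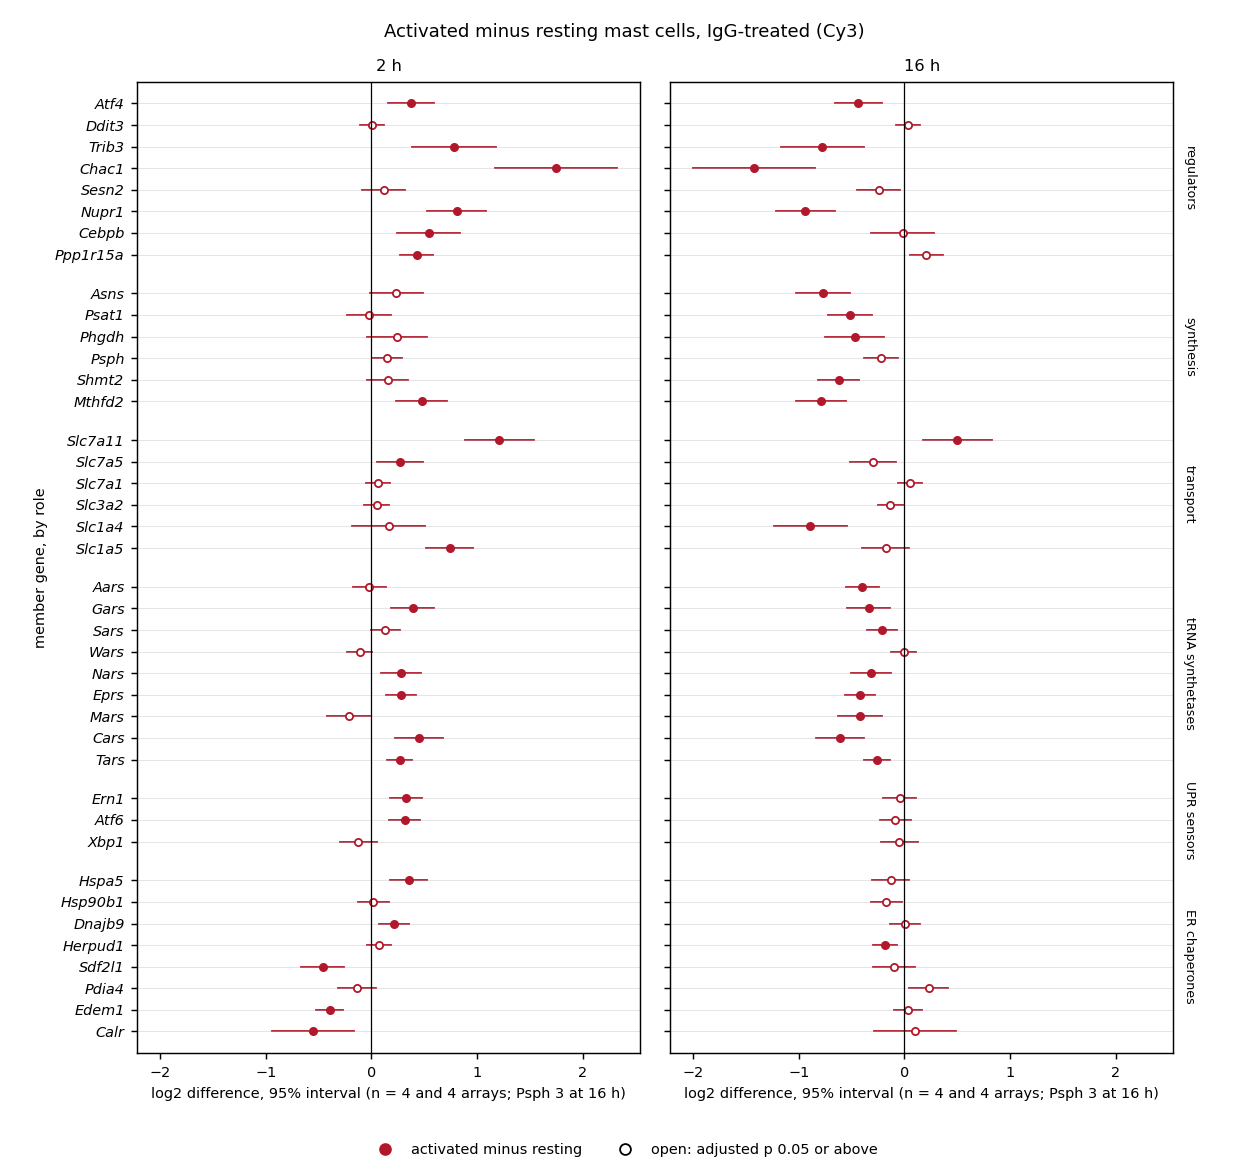
Difference between activated and resting IgG-treated cells (Cy3, log2) for each of the 40 members at 2 h (left) and 16 h (right); points are limma estimates, lines 95% intervals, and filled points passed the test. Most filled points lie to the right of 0 at 2 h (19 of 22) and to the left at 16 h (19 of 20).

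The change of the activation difference between 2 h and 16 h was tested as an interaction. It was negative for 26 members and positive for 3, where 33.3% of all genes were called (20.6% positive and 12.8% negative), with a median of -0.44 over the members against 0.05 over all genes. The largest values among the members were those of Chac1 (-3.17, SE 0.38, limma adjusted p = 9.4e-06), Nupr1 (-1.74, SE 0.19, limma adjusted p = 2.81e-06), Trib3 (-1.56, SE 0.26, limma adjusted p = 0.000223), Mthfd2 (-1.26, SE 0.16, limma adjusted p = 1.43e-05) and Cars (-1.06, SE 0.15, limma adjusted p = 5.01e-05). All 6 synthesis genes, 4 of 6 transporters and 7 of 9 tRNA synthetases were negative. The 3 positive members were the ER genes Edem1 (0.43), Pdia4 (0.37) and Sdf2l1 (0.36), while the chaperones Hspa5 (-0.48) and Herpud1 (-0.25) went with the amino acid genes.

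The same comparison can be read in the Cy5 channel, from anti-TIM-3-treated cells, as a description. There Chac1 was 2.46 higher in activated than in resting cells at 2 h and changed by -0.99 at 16 h, in mean log2 level. Slc7a11 was 1.54 higher at 2 h and 0.57 higher at 16 h, and Trib3 was 1.15 higher and then differed by -0.50. These values point the same way as in Cy3 (1.75 and -1.42 for Chac1), on arrays that share hybridization with it.

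**Figure D3:**
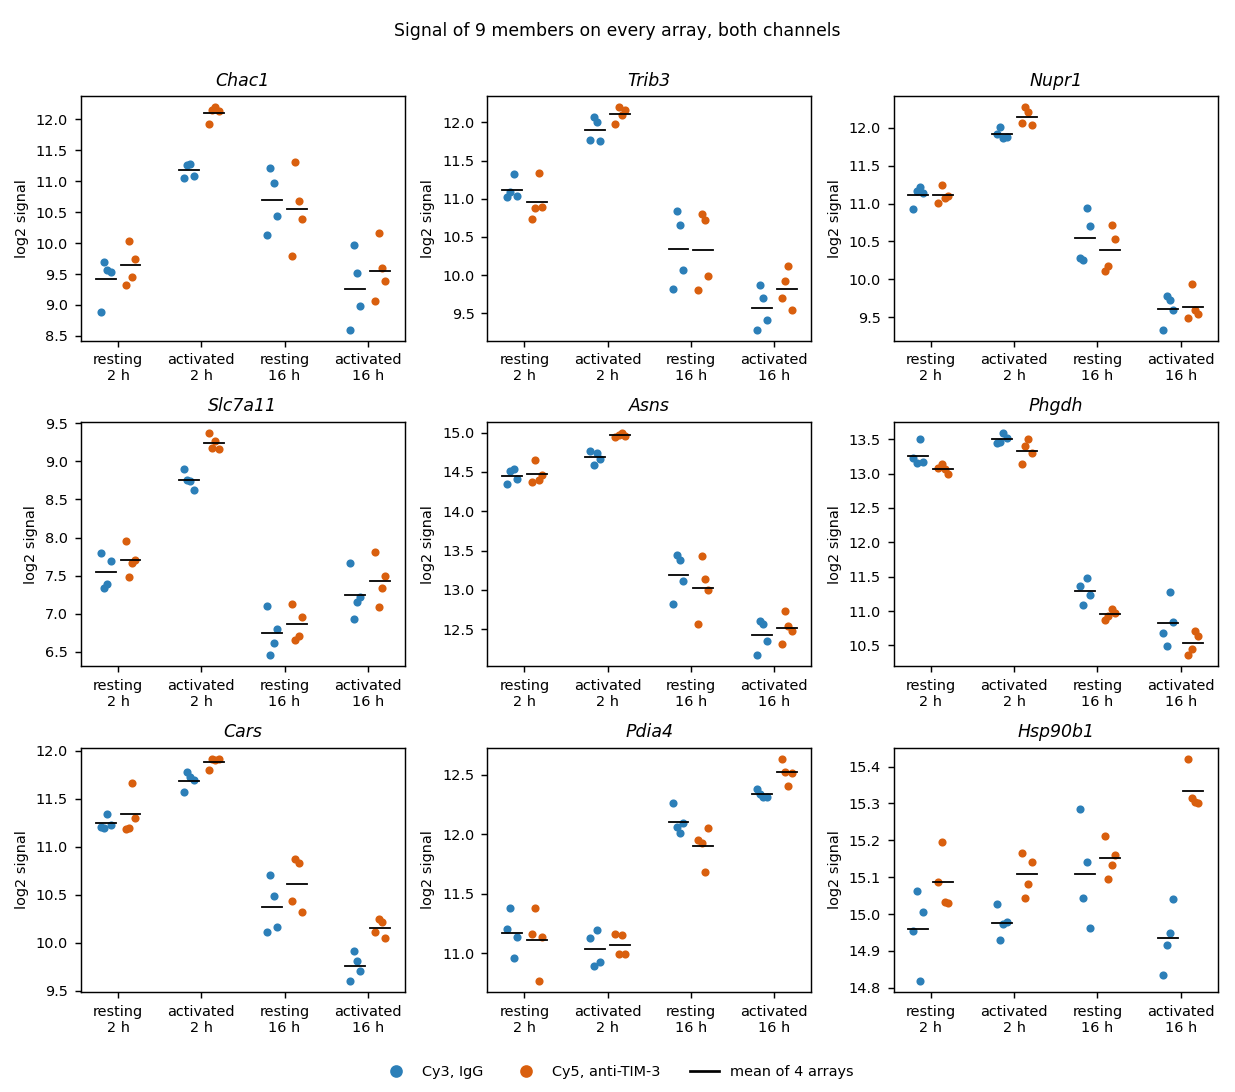
Log2 signal of 9 members on every array, in Cy3 (IgG, blue) and Cy5 (anti-TIM-3, orange), by group; black bars are means of 4 arrays, and the vertical axes differ between panels and do not start at 0. Chac1, Trib3, Nupr1 and Slc7a11 peak in activated cells at 2 h, Asns, Phgdh and Cars are lower at 16 h, and Pdia4 is higher at 16 h.

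The next comparison set 16 h against 2 h in IgG-treated cells. In resting cells 26 members were lower and 5 higher at 16 h, where 46.9% of all genes were called (24% higher and 22.9% lower). The members' median was -0.38, against -0.01 over all genes. In activated cells 33 were lower and 3 higher, where 60.1% of all genes were called (33.8% higher and 26.3% lower), with medians of -0.91 and 0.03. All 9 tRNA synthetases and all 6 transporters fell in both, and 5 of 6 synthesis genes fell in resting and 6 of 6 in activated cells.

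Phgdh read 13.22, 13.16, 13.50 and 13.16 in resting cells at 2 h and 11.37, 11.09, 11.49 and 11.23 at 16 h. The groups lay far apart, with a difference of -1.97 (SE 0.13, limma adjusted p = 4.49e-09), or 3.91-fold. In activated cells it went from 13.44, 13.46, 13.59 and 13.52 to 10.68, 10.50, 11.27 and 10.84, and the difference was -2.68 (SE 0.13, limma adjusted p = 3.35e-11), or 6.40-fold. Slc1a4 read 9.37, 9.41, 9.67 and 9.37 in resting cells at 2 h, all above the 16 h values given earlier, and fell by 1.52 in resting cells and fell by 2.57 in activated cells. Asns read 14.35, 14.51, 14.54 and 14.41 in resting and 14.77, 14.58, 14.74 and 14.67 in activated cells at 2 h. It fell by 1.26 in resting cells and fell by 2.27 in activated cells (limma adjusted p = 2.45e-07 and 7.78e-11), again with no overlap.

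Psat1, the second enzyme of serine synthesis, read 12.49, 12.18, 12.61 and 12.24 in resting cells at 2 h and 11.08, 11.50, 11.26 and 11.19 at 16 h, and fell by 1.12 with no overlap. Among the tRNA synthetases of resting cells, Wars fell most (-1.07) and Tars least (-0.36). In activated cells the falls ran from -1.93 for Cars to -0.88 for Mars. Trib3 read 9.82, 10.83, 10.65 and 10.07 in resting cells at 16 h and 9.29, 9.87, 9.70 and 9.41 in activated cells, below every 2 h array. It fell by 0.78 in resting cells and fell by 2.33 in activated cells, and Nupr1 fell by 0.57 in the former and fell by 2.31 in the latter.

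Chac1 and Sesn2 were the only regulators that rose over time, and did so in resting cells. Chac1 went from the 2 h values given above to 10.12, 11.22, 10.98 and 10.43, a difference of 1.26 (SE 0.27, limma adjusted p = 0.00103) with no overlap, and in activated cells it fell by 1.91. On the 3 slides that held both resting groups the difference was 1.16, 2.33 and 0.43. The ER genes Sdf2l1, Pdia4 and Edem1 rose over time in both conditions. Sdf2l1 went from 12.38 ± 0.15 (SD, n = 4) to 13.34 ± 0.064 in resting cells and from 11.91 ± 0.22 to 13.24 ± 0.073 in activated cells, rises of 0.96 and 1.33. Pdia4, a protein disulfide isomerase, rose by 0.94 and 1.30, and Edem1 by 0.24 and 0.67. In activated cells the ER genes Hspa5, Herpud1 and Dnajb9 were called lower at 16 h. Their mean Cy3 levels went from 14.94 to 14.42, from 13.98 to 13.72 and from 10.61 to 10.30. Hsp90b1, Calr, Xbp1 and Sesn2 were not called in activated cells, and a second Sesn2 probe gave -0.27 where the first rose by 0.37 in resting cells.

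On slides that held both times, the members' median was -0.36, -0.20 and -0.53 in resting cells and, on a single slide, -0.94 in activated cells. Some markers of other cells were called as well. Of the 7 macrophage and dendritic cell markers 2 were higher and 1 lower at 16 h in resting cells, and 3 were higher and 0 lower in activated cells, where 2 of 3 neutrophil markers were lower. Over all genes 46.9% were called in resting and 60.1% in activated cells, and the counts of the 7 are not above those shares. On activation 0 of the 7 were called at 2 h, where 42.9% of all genes were called. At 16 h 2 of them were higher, where 5.24% of all genes were. The part of these cells in the values of the stress genes was not tested.

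**Figure D4:**
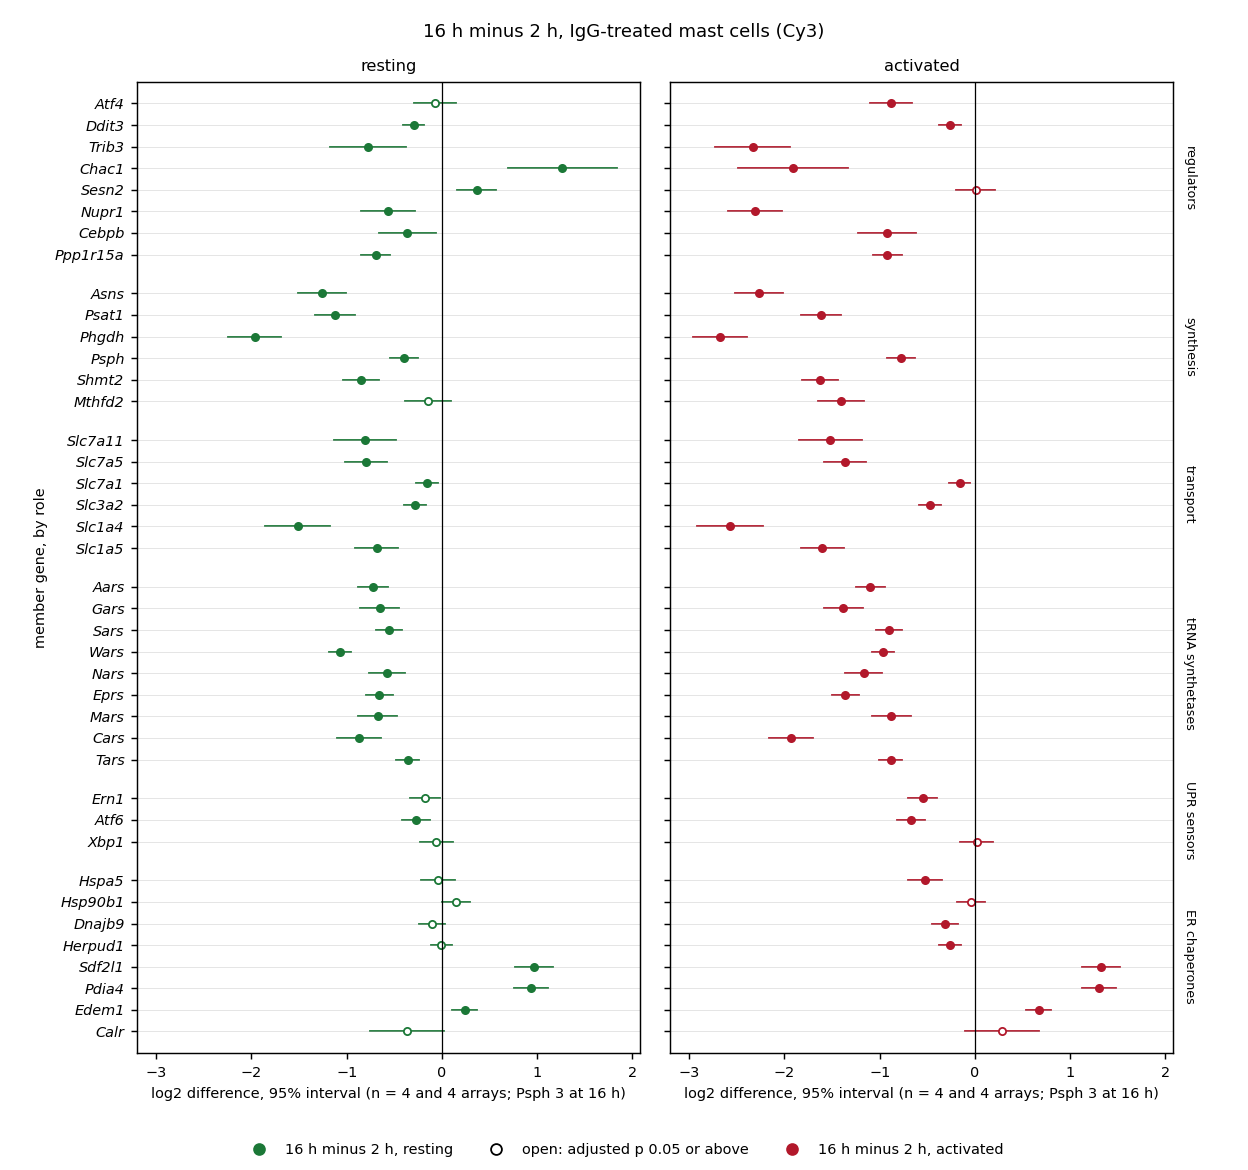
Difference between 16 h and 2 h in IgG-treated cells (Cy3, log2) for each member in resting (left) and activated cells (right); points are limma estimates, lines 95% intervals, and filled points passed the test. The synthesis, transport and tRNA synthetase genes lie left of 0 in both panels where called. Sdf2l1, Pdia4 and Edem1 lie right of 0 in both, and Hspa5, Herpud1 and Dnajb9 lie left of 0 in activated cells.

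Members with a C/EBP-ATF element in the window can be set beside the other members with a window, as a description. In activated against resting cells at 2 h, 6 of 10 with the element rose and 0 fell (median 0.33), and 8 of 24 without it rose and 3 fell (median 0.12). Over all tested genes, 17.0% of those with the element rose and 24.7% fell, against 15.3% and 31.3% of those without it. In the interaction, 10 of 10 were called negative (median -0.87), against 11 of 24 (median -0.28), and over time in activated cells 10 of 10 fell (median -1.71), against 17 of 24 (median -0.54). In the latter comparison 30.1% of all genes with the element and 27.0% of those without it fell. Over all 336 tested genes that hold the element, the interaction's median was 0.05 with 17.9% called negative, and over the 10863 without it the median was 0.07 with 12.7% called negative. The members were chosen by name, and many of them are known as ATF4 targets, so the share that holds the element is not independent of the choice.

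The study's main question was what the TIM-3 antibody did, given by the log2 ratio of Cy5 to Cy3 on each array. In resting cells at 2 h, 4 members had a ratio above 0 and 6 below, where 14% of all genes were called (7.07% above and 6.92% below), with medians of -0.02 over the members and 0.00 over all genes. Psph, phosphoserine phosphatase, read 0.36, 0.37, 0.01 and 0.21 (mean 0.24, SE 0.061, limma adjusted p = 0.0179). Mthfd2 read 0.31, 0.08, 0.29 and 0.11 (mean 0.20, SE 0.043, limma adjusted p = 0.00552), and Hspa5 read 0.27, 0.13, 0.32 and 0.09 (mean 0.20, SE 0.049, limma adjusted p = 0.0118). All 4 arrays were above 0 for each of these 3 genes. Atf4 read -0.38, -0.22, -0.07 and -0.21 and Ppp1r15a -0.26, -0.51, -0.02 and -0.17, all below 0. These are ratios of at most 1.18-fold, and 0 of the 10 calls held under each alternative run; with only the resting 2 h arrays in the fit 0 were called, and with median centring in place of loess 34 were called, all above 0, where the median of all genes was 0.21 and 5 of 40 members lay below it.

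In activated cells at 2 h, 16 members had a ratio above 0 and 1 below, where 33.3% of all genes were called (17.1% above and 16.3% below). The members' median was 0.11 and that of all genes 0.00. With median centring in place of loess all 40 were above 0, where the median of all genes was itself 0.22 and that of the members 0.62. Above the all-gene median lay 39 members. The members' median Cy3 level on these arrays was 12.20 to 12.37, against 8.87 to 8.88 over all genes. Median centring leaves in any change of the ratio with brightness, so the 39 cannot be read as an antibody effect. The dimmest member, Slc7a1, went from 0.04 with loess to 0.10, and the brightest, Slc3a2, from 0.15 to 0.94. Chac1 read 0.86, 0.89, 0.91 and 1.04 on the 4 arrays, a mean of 0.92 (SE 0.081, limma adjusted p = 2.22e-07), or 1.90-fold. The arrays differed little among themselves, and each lay above every other array's Chac1 ratio in the study, of which the highest was 0.45 in activated cells at 16 h. Slc7a11 read 0.47, 0.41, 0.52 and 0.54 (mean 0.49, SE 0.04, limma adjusted p = 1.13e-07), above each resting 2 h value, which were 0.17, 0.15, 0.27 and 0.02. Sesn2 read 0.30, 0.42, 0.35 and 0.54 (mean 0.40, SE 0.059, limma adjusted p = 6.5e-05).

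Psph read 0.35, 0.43, 0.40 and 0.40 (mean 0.40), and Hspa5 0.49, 0.29, 0.23 and 0.34 (mean 0.34), with all arrays of both genes above 0. The remaining members above 0 were Mthfd2 (0.29), Slc7a5 (0.29), the large neutral amino acid transporter LAT1, Asns (0.27), Slc1a5 (0.27), Herpud1 (0.23), Nupr1 (0.22), Trib3 (0.21), Cars (0.19), Ern1 (0.19), Wars (0.17) and Hsp90b1 (0.13). Aars was below 0 (-0.17), as it was in resting cells at 2 h (-0.18). Other probes of Cars gave -0.10 and 0.28, and a second probe of Wars gave -0.13. Of the 17 calls, 10 held under each alternative run, among them Chac1, Slc7a11, Sesn2, Psph and Hspa5. No alternative run takes out a dye preference that is equal on all arrays. Psph (0.24, 0.40, 0.05 and 0.27) and Hspa5 (0.20, 0.34, 0.12 and 0.31) had mean ratios above 0 in all 4 groups, in the order resting and activated at 2 h, then at 16 h. Neither was called in the difference between activated and resting ratios at 2 h, given next. Hsp90b1 lost its call in 10 of 14 alternatives.

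The difference between the ratios of activated and resting cells, from which a constant dye bias drops out, was above 0 for 8 members at 2 h and below 0 for 0, where 5.58% of all genes were called (3.59% above and 1.99% below). The members' median difference was 0.12, that of all genes 0.00, and within the 2 slides that held both groups the members' median was 0.12 and 0.09. The groups did not overlap for any of the 8, and how many of all genes had such groups was not counted. Chac1 differed by 0.71 (SE 0.115, limma adjusted p = 0.000859), since its resting ratios were 0.43, 0.33, -0.10 and 0.20. Sesn2 differed by 0.41 (SE 0.084, limma adjusted p = 0.00636), with resting ratios of 0.24, -0.06, -0.08 and -0.12. Trib3 differed by 0.37 (SE 0.09, limma adjusted p = 0.022), going from -0.29, -0.21, 0.01 and -0.15 in resting to 0.21, 0.12, 0.09 and 0.41 in activated cells. Slc7a11 differed by 0.33 (SE 0.057, limma adjusted p = 0.00145) and Herpud1, an ER degradation adaptor, by 0.28 (SE 0.06, limma adjusted p = 0.00886).

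Asns (0.26), Wars (0.26) and Slc7a5 (0.25) made up the rest of the 8. Only Chac1 and Sesn2 kept their calls under each alternative run. From Agilent's own processed signals 3 members were called, and with only the resting and activated 2 h arrays in the fit 5 were called. On the 2 shared slides Chac1 differed by 0.44 and 1.08, and Sesn2 by 0.12 and 0.52. Of the 8 called members, 5 have a C/EBP-ATF element in their window (Chac1, Trib3, Asns, Slc7a11 and Herpud1), which is 5 of the 10 members with the element against 1 of the 24 without; over all genes the shares called above 0 were 6.85% and 3.78%. Slc7a5 and Wars had no window.

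**Figure D5:**
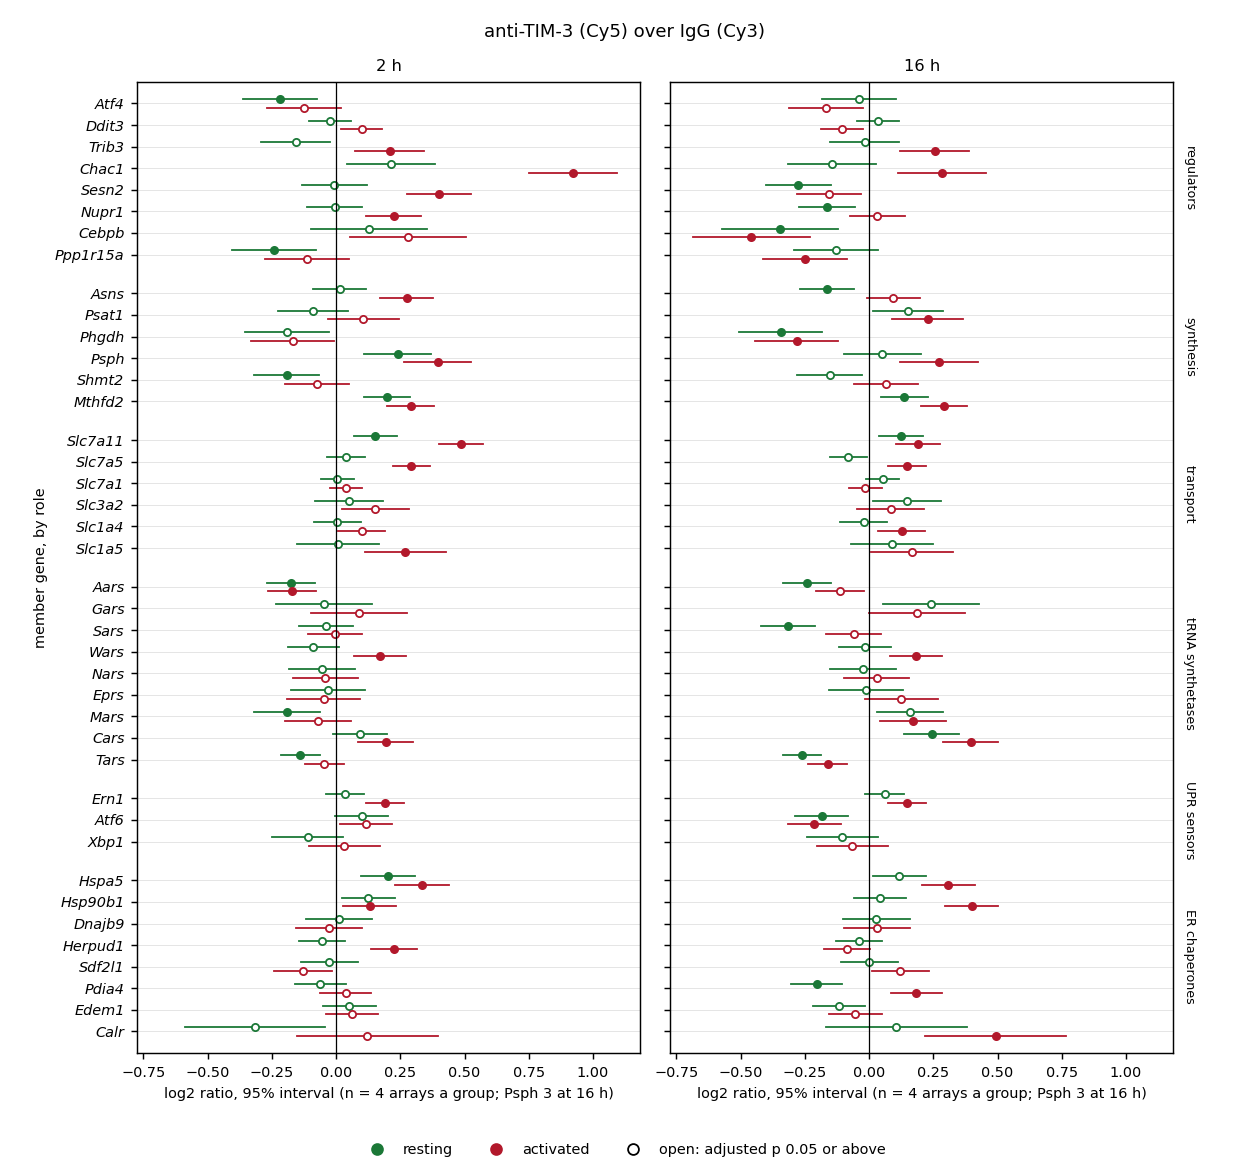
Log2 ratio of anti-TIM-3 (Cy5) to IgG (Cy3) for each member at 2 h (left) and 16 h (right), in resting (green) and activated cells (red); points are limma estimates, lines 95% intervals, and filled points passed the test. Chac1 in activated cells at 2 h (0.92) lies farthest from 0, and at 16 h the chaperones Hspa5, Hsp90b1, Pdia4 and Calr lie right of 0 in activated cells.

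In resting cells at 16 h, 3 members had a ratio above 0 and 10 below, where 21.6% of all genes were called (11.7% above and 9.95% below); the medians were -0.02 over the members and 0.01 over all genes. Cebpb read -0.53, -0.17, -0.58 and -0.10 (mean -0.35, SE 0.11, limma adjusted p = 0.03). Phgdh read -0.50, -0.16, -0.46 and -0.26 (mean -0.34, SE 0.077, limma adjusted p = 0.00543), and Sars read -0.52, -0.14, -0.39 and -0.20 (mean -0.32, SE 0.05, limma adjusted p = 0.000548). In each of these 3 genes replicates 1 and 3 lay farther from 0 than replicates 2 and 4. This was not particular to them, since the SD of the ratios of all genes was 0.217 and 0.228 on replicates 1 and 3. On replicates 2 and 4 it was 0.121 and 0.127. Sesn2 read -0.41, -0.11, -0.42 and -0.16 (mean -0.27), and Tars read -0.35, -0.16, -0.32 and -0.21 (mean -0.26). Aars (-0.24), Pdia4 (-0.20), Atf6 (-0.18), Asns (-0.16) and Nupr1 (-0.16) were also below 0, and Cars (0.24), Mthfd2 (0.14) and Slc7a11 (0.12) above. Median centring called 37 above 0 and 0 below, but it moved the median of all genes to 0.30, and 12 members lay below that median, 7 of the 10 called below 0 with loess among them; without the 3 arrays that deviate together, 7 were called, and only Cars was called under each alternative run.

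In activated cells at 16 h, 16 members had a ratio above 0 and 5 below, where 30.1% of all genes were called (16.9% above and 13.2% below), with medians of 0.11 over the members and 0.01 over all genes. Calreticulin (Calr), a calcium-binding chaperone, read 0.66, 0.27, 0.79 and 0.25 (mean 0.49, SE 0.13, limma adjusted p = 0.00803). Replicates 1 and 3 were again the higher, and Calr was not called without either of them (limma adjusted p up to 0.0633). Hsp90b1, the chaperone GRP94, read 0.59, 0.40, 0.35 and 0.26 (mean 0.40, SE 0.048, limma adjusted p = 1.04e-05). Cars read 0.51, 0.33, 0.40 and 0.34 (mean 0.39, SE 0.05, limma adjusted p = 1.64e-05), and Hspa5 read 0.42, 0.39, 0.26 and 0.16 (mean 0.31, SE 0.049, limma adjusted p = 0.000159). All 4 arrays were above 0 for each, and Hsp90b1 lay at or below 0.20 on every resting 16 h array.

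Cebpb went the other way, at -0.60, -0.20, -0.64 and -0.40 (mean -0.46, SE 0.11, limma adjusted p = 0.00361). The other members below 0 were Phgdh (-0.28), Ppp1r15a (-0.25), Atf6 (-0.21) and Tars (-0.16). Those above 0 also included Chac1 (0.29), Mthfd2 (0.29), Psph (0.27), Trib3 (0.26), Psat1 (0.23), Slc7a11 (0.19), Wars (0.18), Pdia4 (0.18), Mars (0.17), Slc7a5 (0.15), Ern1 (0.15) and Slc1a4 (0.13). By role, 4 of 8 ER genes and 3 of 6 synthesis genes were above 0, and 2 of 8 regulators were above and 2 below. Of the 21 calls, 8 held under each alternative run (Cars, Ern1, Hsp90b1, Hspa5, Mthfd2, Pdia4, Slc7a11 and Slc7a5). Of these 8, only Hsp90b1, Pdia4 and Slc7a5 were also called in the difference from resting ratios, from which a constant dye bias drops out. Median centring gave 39 above 0 and 0 below, where the median of all genes was 0.39 and 9 members lay below it, with Cebpb, Phgdh, Ppp1r15a and Atf6 among these.

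Markers of other cells moved in the same comparison. Of the 7 macrophage and dendritic cell markers, 1 was above and 5 were below 0 in activated cells at 16 h, with a median of -0.36, and of the 10 mast cell markers 7 were above and 1 was below, with a median of 0.30. Over all genes 16.9% were above and 13.2% below. The summed signal of the macrophage list ranged from 14.32 to 15.88 (log2) in Cy3 and from 13.92 to 15.23 in Cy5 on those arrays, and all 7 of its genes were detected on at least 12 of 16 arrays. In activated cells at 2 h, 0 of the 7 were above and 1 was below 0 (median -0.01), where 17.1% of all genes were above and 16.3% below. Their part in the results on the stress genes was not tested.

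The difference between activated and resting ratios at 16 h was above 0 for 6 members and below for 0, where 8.58% of all genes were called (4.71% above and 3.87% below), and the members' median was 0.11 against 0.00. Pdia4 went from -0.31, -0.14, -0.33 and -0.04 in resting to 0.25, 0.18, 0.09 and 0.21 in activated cells, below 0 on every resting array and above 0 on every activated one. Its difference was 0.39 (SE 0.066, limma adjusted p = 0.00126). Hsp90b1 went from -0.07, 0.05, -0.01 and 0.20 to the values above, a difference of 0.36 (SE 0.068, limma adjusted p = 0.00321). Slc7a5 went from -0.12, -0.01, -0.08 and -0.12 to 0.09, 0.18, 0.14 and 0.17 (0.23, SE 0.049, limma adjusted p = 0.00694). These 3 calls held under each alternative run and their groups did not overlap.

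Chac1 (0.43), whose groups overlapped, Asns (0.26) and Sars (0.26) completed the 6. Asns lost its call in 6 of 18 alternatives, among them without the 3 arrays that deviate together, where 4 members were called. Within the 2 slides that held both groups, the members' median difference was 0.07 and 0.19, and Pdia4 differed by 0.39 and 0.53. In the macrophage list 1 marker was called above and 3 below 0 in this difference (median -0.34), where 4.71% of all genes were above and 3.87% below. This list's part was not tested.

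Last, the ratios at 16 h and 2 h were compared. In resting cells 0 members were called, where limma called 0.287% of all genes (0.0878% above and 0.199% below). Before adjustment, 16 members had a limma p under 0.05, and so had 3822 of the 17080 genes tested. With the replicate number as a block 2 members were called, and without resting 2 h replicate 3, one of the arrays that deviate, 10 were called. The 0.287% belongs to the full fit, and the shares of all genes called in these other runs are not given here. In activated cells 8 members were below 0 and 2 above, where 17.2% of all genes were called (9.14% above and 8.05% below). Cebpb went from 0.07, 0.46, 0.47 and 0.12 at 2 h to the negative values given above at 16 h, a change of -0.74 (SE 0.15, limma adjusted p = 0.00239). Chac1 changed by -0.64 (SE 0.115, limma adjusted p = 0.00078), from ratios between 0.86 and 1.04 to 0.45, 0.20, 0.09 and 0.40. Sesn2 changed by -0.56 (SE 0.084, limma adjusted p = 0.000146), from positive ratios on all arrays to -0.19, -0.13, -0.18 and -0.11.

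Atf6 went from 0.14, 0.12, 0.13 and 0.08 to -0.27, -0.13, -0.32 and -0.13, a change of -0.33 (SE 0.068, limma adjusted p = 0.00255). Herpud1 went from 0.18, 0.30, 0.18 and 0.24 to -0.14, -0.09, 0.00 and -0.11 (-0.31, SE 0.06, limma adjusted p = 0.00136). Slc7a11 (-0.30), Ddit3 (-0.20) and Slc7a5 (-0.15) were the other members below 0, and the ER genes Hsp90b1 (0.27) and Sdf2l1 (0.25) were above. Called regulators, transporters, Atf6 and Herpud1 had their higher ratio at 2 h, and a pair of ER chaperone genes had it at 16 h. Cebpb, Chac1, Sesn2 and Atf6 kept their calls under each alternative run. Within slides the members' median change was -0.02 in activated cells, on a single slide, and 0.02, -0.02 and -0.01 in resting cells. Of the 7 macrophage and dendritic cell markers 1 was above and 5 were below 0 in this comparison of activated cells (median -0.40). Over all genes 9.14% were above and 8.05% below. The part of these cells was not tested.

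Other genes of the same pathways, listed by name, were looked at in the same fits, and 59 of 61 could be tested. They were 20 genes of the eIF2alpha and ATF4 branch, 11 other cytosolic tRNA synthetases and 28 other ER genes. In IgG-treated cells at 2 h, where 15.3% of all genes were higher and 27.6% lower, 8 branch genes were higher and 5 lower on activation, among them Ddit4 (-1.04), an inhibitor of mTORC1, Gpt2 (0.93), an alanine aminotransferase, and Slc38a2 (-0.66), a glutamine transporter. Of the ER genes 3 were higher and 6 lower, with the ER oxidase Ero1l at 0.90. Of the other tRNA synthetases 0 were higher and 3 lower, where 5 of the 9 member synthetases rose. At 16 h, where 7.03% of all genes were lower, 4 of the 11 fell, with Iars at -0.60 and Yars at -0.55. Over time in activated cells, where 26.3% of all genes were lower, 12 of 20 branch genes and 8 of 11 synthetases fell, among them Eif4ebp1 (-1.98), Aldh18a1 (-1.98), Gpt2 (-1.94) and, of the ER genes, Ero1l (-1.79).

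In the antibody comparison of activated cells at 2 h, the stress-induced factor Atf3 had a ratio of 0.94 (limma adjusted p = 8.66e-08), the cytokine Gdf15 0.87 (limma adjusted p = 1.43e-09), Ero1l 0.60 and Edem2 -0.38. Against resting cells Atf3 differed by 0.95, Gdf15 by 0.68, Ero1l by 0.56 and Sel1l by -0.31. At 16 h in activated cells the glycoprotein Stc2 had a ratio of 0.89 (limma adjusted p = 2.01e-09), Aldh18a1, which opens proline synthesis, 0.50, Sec24d 0.34 and Mbtps1 -0.33. Stc2 differed from resting cells by 1.01, Aldh18a1 by 0.55, Mthfd1l by 0.36 and Sec61b by 0.35. Of the 28 other ER genes, 12 had a ratio above 0 and 3 below in activated cells at 16 h, where 16.9% of all genes were above and 13.2% below. At 2 h, 3 were above and 7 below, where the shares of all genes were 17.1% and 16.3%. Between 2 h and 16 h in activated cells the ratio changed by -0.84 for Atf3, -0.69 for Gdf15, 0.65 for Stc2 and 0.55 for Aldh18a1.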

How the data were processed

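RNA of 16 pairs of mast cell samples was hybridized to two-colour Agilent arrays, with RNA from IgG-treated cells in Cy3 and from anti-TIM-3-treated cells in Cy5, per the labels. The deposited scanner files hold spot and background intensity of both channels from Feature Extraction 9.1.3.1, per the file headers, and its log10 ratio of Cy5 to Cy3, and the value table repeats them. Spot intensities were corrected with normexp (offset 50) and normalized by loess within arrays in limma 3.58.1 (R 4.3.3), with control and outlier spots left out. The log2 values given here were computed from these deposited intensities, as ratios of Cy5 to Cy3 and, after Aquantile normalization between arrays, as levels per channel. A probe was kept when either channel was well above background on at least 3 of 4 arrays of a group, which left 25394 of 41174 probes, and the brightest kept probe stood for each of 17082 genes. Psph has 3 values in each 16 h group, because an outlier spot was left out.

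All 16 arrays entered one limma model for the ratios and one for the Cy3 levels, with 13 comparisons, Benjamini-Hochberg adjustment over all genes within each, and an adjusted p under 0.05 as the call. The members and the lists of other genes were chosen with earlier results of these data known. Members named are those called, by role; values on every array are given for up to 5 with the largest difference among those with all arrays in one direction (ratios) or groups that did not overlap (Cy3), and up to 4 called genes of the other lists are named in a comparison. The few further members named by value were chosen after their values were seen. The replicate numbers were checked: in Cy3, same-numbered arrays of different groups deviated together in all 24 pairs (correlation from 0.11 to 0.68), so the numbers pair these samples. The main fit did not use this pairing, so the SEs and p-values given here ignore it. With the replicate block 24, 23, 31, 33 and 36 members were called in the 5 Cy3 comparisons, and no Cy3 call was lost. In data simulated from these arrays (16754 genes), 94% of log2 ratio changes of 0.5 and 68.7% of changes of 0.25 in activated cells at 2 h were recovered. For changes of 0.25 the share was 50.7% for activated minus resting ratios at 2 h, 29.9% for activation in Cy3 at 2 h and 20.9% for its change between times (56.7% at 0.5). Each simulation changed only 67 genes by 0.25, 67 by 0.5 and 66 by 1, with independent noise. Of its calls, 0.885% to 6.42% were false. Far more genes were called in the real comparisons, so the shares recovered there may differ. Alternatives were Agilent's processed signals, another offset, median centring, other filters and probe rules, slide and replicate blocks, separate fits, leaving out each array and, chosen after seeing the data, leaving out 3 arrays that deviate together.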

Additional observations from a re-analysis of the deposited data

Results flagged for a closer look

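Of 208 sets of 4 arrays examined for a single array far from the rest, 8 had one, where chance gives about 5% of sets. In the log2 ratio, Asns was lowest in activated cells at 16 h on replicate 3 (-0.023), and Sesn2 was highest in resting cells at 2 h on replicate 1 (0.24). In Cy3, Ppp1r15a was lowest on replicate 2 of activated cells at 16 h (10.61) and on replicate 1 of activated cells at 2 h (11.39), and highest on replicate 2 of resting cells at 16 h (10.66). For activated cells at 16 h the other arrays all read 10.63, so that gap is small and was flagged only because the set is tight. Psph was lowest on replicate 4 of activated cells at 2 h (12.69), Cebpb highest on replicate 1 of resting cells at 16 h (13.66), and Slc1a4 highest on replicate 3 of resting cells at 2 h (9.675).

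The antibody's ratio differed between activated and resting cells, by limma's test of the difference, for Chac1 (0.71), Sesn2 (0.41), Trib3 (0.37), Slc7a11 (0.33) and Herpud1 (0.28) at 2 h. At 16 h it differed for Pdia4 (0.39), Hsp90b1 (0.36), Asns (0.26) and Slc7a5 (0.23). Between 2 h and 16 h in activated cells it differed for Cebpb (-0.74), Chac1 (-0.64), Sesn2 (-0.56), Atf6 (-0.33) and Herpud1 (-0.31). The activation difference in IgG-treated cells changed between 2 h and 16 h for Chac1 (-3.17), Nupr1 (-1.74), Trib3 (-1.56), Mthfd2 (-1.26) and Cars (-1.06).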

How the results depend on the processing

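Counts of members called in the 5 comparisons of the IgG channel stayed within 1.5 times under every alternative run. The shares of all genes called in the alternative runs are not given here. The counts in this section therefore show only how the members' calls depend on the processing. Leaving out single arrays gave 20 to 24 on activation at 2 h, 14 to 19 at 16 h, 26 to 30 for the change between times, 29 to 31 over time in resting cells and 36 in activated cells. Ratio counts moved more, and leaving out single arrays gave 3 to 7 in resting cells at 2 h, 13 to 17 in activated cells at 2 h, 6 to 13 in resting cells at 16 h and 14 to 19 in activated cells at 16 h. For the differences of ratios it gave 5 to 8 between activated and resting cells at 2 h, 3 to 6 at 16 h, 0 to 10 between times in resting cells (10 without resting 2 h replicate 3) and 8 to 9 in activated cells. Agilent's processed signals gave 5 in resting cells at 2 h and 3 for activated minus resting at 2 h; an offset of 10 gave 6 in resting cells at 2 h. Fits of only the groups compared gave 0 in resting cells at 2 h, 8 in resting cells at 16 h and 5 for activated minus resting at 2 h. The slide block gave 6 between times in activated cells, and leaving out the 3 arrays that deviate gave 7 in resting cells at 16 h. With the replicate block, the ratio counts were 11, 19, 16 and 22 for resting and activated cells at 2 h and then at 16 h, and 2 between times in resting cells; ratios of same-numbered arrays did not all deviate together (correlations from -0.45, median 0.12), and Hsp90b1 in activated cells at 2 h was the only call lost under either channel's block.

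Median centring in place of loess gave 34, 40, 37 and 39 members in the 4 groups, all above 0, and 11 for activated minus resting at 16 h. The shares of all genes called with it are not given here, and the median of all genes was itself above 0 in each group. It moved the median of all genes by 0.21 to 0.39 and gave 22 ratios called below 0 a value above 0; 13 of the 22 still lay below the all-gene median. In resting cells at 2 h these became 0.43 (Aars), 0.16 (Atf4), 0.23 (Mars), 0.10 (Ppp1r15a), 0.25 (Shmt2) and 0.44 (Tars), and in activated cells at 2 h 0.52 (Aars). In resting cells at 16 h they became 0.35 (Aars), 0.40 (Asns), 0.26 (Atf6), 0.21 (Cebpb), 0.26 (Nupr1), 0.29 (Pdia4), 0.10 (Phgdh), 0.28 (Sars), 0.29 (Sesn2) and 0.33 (Tars). In activated cells at 16 h they became 0.33 (Atf6), 0.25 (Cebpb), 0.25 (Phgdh), 0.27 (Ppp1r15a) and 0.58 (Tars). Median centring subtracts a single value per array, so it leaves in any change of the ratio with brightness, which loess takes out. In activated cells at 16 h the dim Slc7a1 (Cy3 6.75) read -0.01 with loess and 0.01 with median centring. The bright Slc3a2 (14.79) read 0.08 and 0.95. The members' median Cy3 level lay above that of all genes on every array, so these counts are not a result about the pathway. The cause of the shift was not tested further. All members were well above background on all arrays, but Slc7a1 (6.64 to 6.97 in Cy3), Slc7a11 (from 6.45) and Slc1a4 (from 6.85) came near the 6.35 that markers not above background reached, so the offset makes their fold differences smaller.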
